A study of Homo sapiens with 12 samples.

Results

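The regions of open chromatin described here are those at 8 genes for transcription factors of the intestinal endoderm, CDX2, HNF4A, GATA6, FOXA1, FOXA2, KLF4, KLF5 and ISX, in HCT116 cells. A region was taken as a member where it overlapped the gene body of GENCODE 44 on the hg38 build, or the 20 kb on either side of it, and 21 of the 30170 regions in the count table did so. Of these, 10 lay within 1 kb of an annotated transcript start of the gene and are called start regions, and the other 11 are called distal. KLF5 held 6 regions, CDX2 held 5, FOXA1 held 3, HNF4A, GATA6 and FOXA2 held 2 each, KLF4 held 1 and ISX held 0. HCT116 is an established human colorectal cancer line that was grown in serum-containing medium, and accessibility was measured by ATAC-seq, in which the Tn5 transposase cuts open DNA and the cut fragments are sequenced. The 4 groups of 3 libraries each were the empty vector control (HCT116EV), cells carrying an EHF expression plasmid and isolated as geneticin-resistant clones (HCT116EHF), cells carrying a CDX1 retrovirus and sorted for the GFP encoded beside it (HCT116CDX1), and the CDX1 cells further transfected with the EHF plasmid and again isolated as resistant clones (HCT116EHF+CDX1). Every group is thus a selected derivative of a single line, and no source used here says that the 3 libraries of a group came from separate cultures, so the SD and p-values below measure the spread between libraries, which may be technical.

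These factors act in a shared network in the gut. CDX2 and its close relative CDX1 are homeobox proteins that set intestinal identity, and ISX is an intestinal homeobox factor that limits the uptake and conversion of vitamin A precursors. HNF4A is a nuclear receptor that drives genes of the absorptive enterocyte, and GATA6 is a zinc-finger factor of the endoderm and of crypt cells. FOXA1 and FOXA2 are forkhead pioneer factors, able to bind sites within closed chromatin, KLF5 is a zinc-finger factor of dividing crypt cells, and KLF4 is its counterpart in goblet and other non-dividing cells. EHF is an epithelial ETS factor. Members of the network bind near the genes of the other members, and open regions close to a gene start or at a distance from it are where such binding is usually found.

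The libraries held 567366 to 2443334 counts over all regions. Outside regions matching mitochondrial DNA and exons of the introduced genes, 148299 to 912616 counts remained, and 37 to 801 of these fell in the 21 member regions, so that most values below rest on few counts. The libraries labelled HCT116EV gave 65.0 to 73.8% of their counts to mitochondrial matches, against 14.5 to 37.2% in the other groups, where exons of the introduced genes took 9.99 to 78.4% of all counts. Outside those exons the mitochondrial share was 65.1 to 73.9% in HCT116EV and 40.1 to 67.4% in the other groups. HCT116EHF+CDX1 replicate 2 stood apart, its median region holding 22 counts while that of the other 11 libraries held 2 to 11, and each call below is therefore given without it as well. It also gave 4.62% of its remaining counts to chromosome 13, which carries both CDX2 and KLF5, against 2.54 and 2.56% in the other two HCT116EHF+CDX1 libraries and 1.84 to 2.39% in the 9 libraries of the other groups. Of 6 epithelial marker genes 5 had start regions, and CDH1, which encodes the epithelial cadherin, had none. Summed over the 5, the libraries held 31.6 to 49.4 CPM (counts scaled to library size) in HCT116EV and 64.1 to 88.7 CPM in HCT116EHF+CDX1. Of 4 fibroblast markers COL1A1 and COL1A2 had start regions, at 9.14 to 19.2 CPM in all, and none of 4 blood markers had one.

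Accessibility summed over the member loci was higher in HCT116EHF+CDX1 than in HCT116EV, though not at every locus. Summed over the 21 regions it was 62.4 ± 6.29 CPM (SD, n = 3) in HCT116EV, 77.7 ± 3.35 in HCT116EHF, 87.0 ± 3.70 in HCT116CDX1 and 139.9 ± 35.4 in HCT116EHF+CDX1, where the single libraries gave 119, 181 and 120 CPM. Raw counts were then pooled per gene, start and distal regions apart, which gave 11 member pools, and the same pools were formed for all protein-coding genes so that 16020 could be tested in 1 edgeR fit. In HCT116EHF+CDX1 against HCT116EV, 4 of the 11 member pools passed an adjusted p of 0.05, against 2.53% of all pools: the distal pool of CDX2, the start pool of FOXA2 and both pools of KLF5, all higher. By kind these were 2 of 7 start pools and 2 of 4 distal pools, against 1.33 and 4.35% of all such pools, and 1.67% of all pools passed as higher. Without overlap between the groups 6 of 11 were higher and 1 was lower, against 13.8 and 6.7% of all pools. Over the member pools the median log2 fold change was 1.22, and over all pools it was 0.14. Of the member pools 9 of 11 were above 0, beside 58.2% of all pools. The start pools of GATA6 and FOXA1 were below 0. Over single regions the median was 2.16 for the 11 distal member regions and 1.20 for the 10 start regions. All distal and all start regions tested stood at 0.16 and 0.19. Of the distal member regions 9 lie on chromosome 13, and of the start regions 2. With libraries scaled within each chromosome, as described below for the pools, the member medians were 1.67 and 0.67. The distal pools on other chromosomes, of HNF4A and FOXA1, overlapped HCT116EV and did not pass (edgeR adjusted p = 0.432 and 0.550). All 21 regions and 11 pools passed the filter on low counts, 7 regions and 2 pools (HNF4A start and FOXA2 start) through HCT116EHF+CDX1 libraries alone. Without HCT116EHF+CDX1 replicate 2 only the CDX2 distal pool passed. With library size, quantile or cyclic loess scaling in place of TMM, edgeR's default scaling, 0 of the 11 pools passed, where of all pools 6 were called higher and 3 lower with library size, 25 and 30 with quantile and 0 and 0 with loess scaling. The 4 kept their direction, with CDX2 distal at 2.52, 2.1 and 2.1 (adjusted p = 0.407, 0.119 and 0.178). In bulk cells a locus that is open in more cells and a locus that is more open per cell cannot be told apart.

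**Figure D1:**
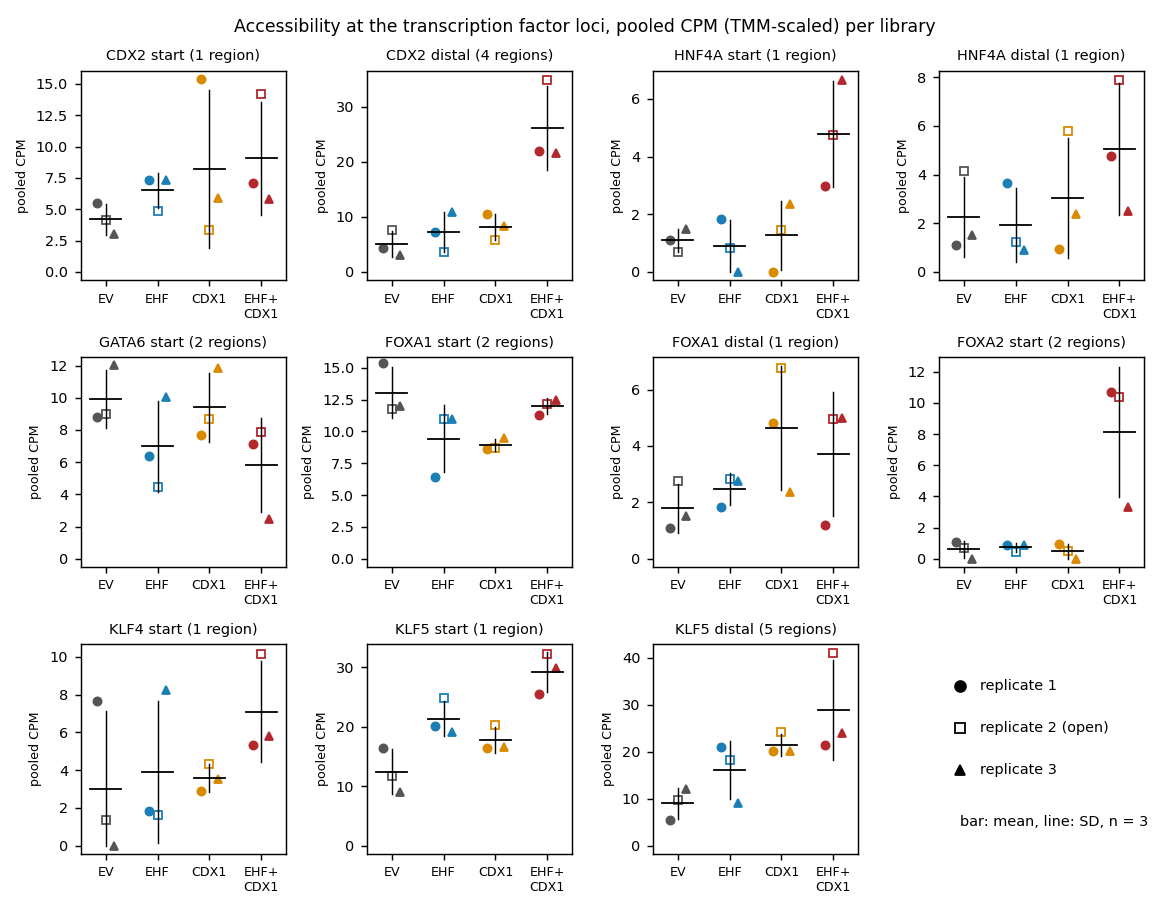
CPM in each of the 12 libraries for the 11 member pools, 1 panel per pool, with the 4 groups on the x axis; circles, open squares and triangles are replicates 1, 2 and 3, the bar is the group mean and the line its SD (n = 3). In the CDX2 distal, FOXA2 start and KLF5 start panels every HCT116EHF+CDX1 library lies above every library of the other groups, while in the GATA6 start panel every HCT116EHF+CDX1 library lies below every HCT116EV library.

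The sequences below include the start region with the highest mean CPM of HNF4A, GATA6, FOXA1, KLF4, CDX2 and KLF5. The others are the distal regions of CDX2 and KLF5 that passed the test in some comparison. No FOXA2 region is shown, though 1 passed. The printed sequences are the hg38 plus strand, read 5′ to 3′ at the coordinates in the count table. Where a region ran into an untranslated exon, only the rest of it is shown. Capitals mark a CDX core (TTTATG or TTTATT) or an ETS core (AGGAAGT or CGGAAGT) on either strand, so that a core on the minus strand reads as its reverse complement. The first 4 are start regions on chromosomes 9, 14, 18 and 20:
HNF4A start, chr20:44355285-44355435: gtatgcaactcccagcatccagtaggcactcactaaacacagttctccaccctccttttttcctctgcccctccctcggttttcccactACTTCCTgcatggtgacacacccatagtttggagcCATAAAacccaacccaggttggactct
GATA6 start, chr18:22169016-22169166: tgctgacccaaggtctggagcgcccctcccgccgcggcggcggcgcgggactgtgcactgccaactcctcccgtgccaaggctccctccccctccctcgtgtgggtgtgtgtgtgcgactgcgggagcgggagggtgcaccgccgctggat
FOXA1 start, chr14:37596124-37596274: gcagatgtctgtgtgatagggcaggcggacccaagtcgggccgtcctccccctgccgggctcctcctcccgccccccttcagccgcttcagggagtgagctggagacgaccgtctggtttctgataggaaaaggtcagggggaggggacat
KLF4 start, chr9:107489770-107489811: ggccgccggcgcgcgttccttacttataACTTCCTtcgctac
The next 5 are the start and distal regions of CDX2 and KLF5 on chromosome 13:
CDX2 start, chr13:27969316-27969406: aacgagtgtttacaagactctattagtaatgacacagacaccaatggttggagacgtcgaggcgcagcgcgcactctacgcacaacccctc
CDX2 distal, chr13:27953679-27953829: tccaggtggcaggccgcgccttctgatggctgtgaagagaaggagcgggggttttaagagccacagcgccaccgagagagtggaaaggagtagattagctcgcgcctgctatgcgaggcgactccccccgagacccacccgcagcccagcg
CDX2 distal, last exon side, chr13:27960837-27960917: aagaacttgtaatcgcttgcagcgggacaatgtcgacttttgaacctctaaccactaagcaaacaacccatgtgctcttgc
KLF5 start, chr13:73058758-73059004: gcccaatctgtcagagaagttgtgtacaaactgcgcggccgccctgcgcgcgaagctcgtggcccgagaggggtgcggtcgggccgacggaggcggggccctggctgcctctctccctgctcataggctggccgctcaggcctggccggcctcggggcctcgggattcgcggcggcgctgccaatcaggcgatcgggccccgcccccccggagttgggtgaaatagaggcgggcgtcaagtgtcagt
KLF5 distal, chr13:73041149-73041299: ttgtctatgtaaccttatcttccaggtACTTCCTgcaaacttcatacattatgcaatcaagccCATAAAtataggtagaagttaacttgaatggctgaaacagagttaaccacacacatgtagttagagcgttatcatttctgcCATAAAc

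The cores were searched on both strands of every region of 151 bases, the usual length in the table, and the CDX and ETS letters do not overlap each other. The CDX core was found in 5 of the 19 member regions of that length and in 17.9% of all 17356 such regions, and the ETS core in 3 of 19 against 8.19%. With the 2 longer member regions included, the CDX core was found in 4 of the 5 distal regions of KLF5, in the HNF4A start region and in the CDX2 distal region at the last exon, there within the part not shown. The ETS core was found in 2 distal regions of KLF5, in the HNF4A start region and in the KLF4 start region. A GATA core (AGATAA) was present in 2 of 19 against 7.33%, and a forkhead core (TGTTTAC) in 1 of 19 against 6.35%, the CDX2 start region. A match describes letters in the window and is not a measured binding site, and with so few regions these shares were not compared by a test.

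At CDX2 (chr13:27960918-27969315, minus strand), the distal regions were more open in HCT116EHF+CDX1 than in every other group. Pooled over its 4 distal regions, the libraries held 4.39, 7.60 and 3.01 CPM in HCT116EV, 7.32, 3.66 and 11 in HCT116EHF, 10.6, 5.79 and 8.28 in HCT116CDX1, and 22, 35.0 and 21.6 in HCT116EHF+CDX1. The lowest HCT116EHF+CDX1 library thus lay above the highest of the 9 others. The log2 fold change was 2.28 ± 0.43 (SE) against HCT116EV (edgeR adjusted p = 0.000764), 2.0 ± 0.39 against HCT116EHF (adjusted p = 0.00079) and 1.77 ± 0.39 against HCT116CDX1 (adjusted p = 0.0064). As a ratio of pooled CPM these were 5.30, 4.77 and 3.93, with 95% counting intervals of 3.23 to 9.26, 3.23 to 7.30 and 2.68 to 5.97. Such intervals, exact binomial ones, cover counting error only, as PCR copies of a molecule could not be told apart. Without HCT116EHF+CDX1 replicate 2 the log2 difference from HCT116EV was 1.99 and kept the call (adjusted p = 0.0442), whereas 1.70 from HCT116EHF and 1.46 from HCT116CDX1 did not pass (adjusted p = 0.0726 and 0.164). The call against HCT116CDX1 was also lost without HCT116CDX1 replicate 2 (adjusted p = 0.13).

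The 4 distal regions of CDX2 lay downstream of its nearest start. The region at chr13:27960837-27960987, whose centre is 6.41 kb away, overlaps the end of the last CDX2 exon and held 1, 0 and 0 counts in HCT116EV, 1, 3 and 0 in HCT116EHF, 2, 5 and 0 in HCT116CDX1, and 8, 47 and 6 in HCT116EHF+CDX1. It was near the floor of detection in the control and above 3 counts in all the double-expressing libraries. Its log2 fold change was 4.13 ± 1.07 against HCT116EV (edgeR adjusted p = 0.0174 over all regions) and 2.99 ± 0.82 against HCT116EHF (adjusted p = 0.0175), and the pooled ratios of 25.2 and 9.69 had counting intervals of 4.36 to 1012 and 3.60 to 36.7. Against HCT116CDX1 it did not pass (2.04 ± 0.76, adjusted p = 0.12). Without HCT116EHF+CDX1 replicate 2 these stood at 3.54 and 2.44 (adjusted p = 0.244 and 0.323), and the former was also not called without HCT116EV replicate 2 or 3 (adjusted p = 0.175 and 0.0725). Leaving out any single HCT116EHF library ended the latter (adjusted p of 0.0523, 0.055 and 0.0864). The region at chr13:27953679-27953829, 13.57 kb away in an exon of the non-coding gene LINC00543, averaged 3.25 ± 0.23, 2.37 ± 1.94, 2.63 ± 1.07 and 8.68 ± 1.87 CPM in HCT116EV, HCT116EHF, HCT116CDX1 and HCT116EHF+CDX1. It passed against HCT116EHF only, at a log2 fold change of 1.97 ± 0.59 (adjusted p = 0.0344). That call was lost without HCT116EHF replicate 1 or 2 (0.13 and 0.21) or HCT116EHF+CDX1 replicate 1 or 2 (0.0502 and 0.306). The other 2 regions lay at 12.83 kb in another LINC00543 exon and at 6.88 kb outside annotated transcripts. The former held 0 to 4.57 CPM in the 3 other groups and 5.34 to 8.13 in HCT116EHF+CDX1. The latter held 0 to 3.85 and 3.32 to 5.42 CPM, and HCT116CDX1 replicate 1 lay within the HCT116EHF+CDX1 range. Neither passed against any of the 3 groups (edgeR adjusted p of 0.0675 to 0.557).

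The start region of CDX2 was less clearly separated. It held 5.49, 4.14 and 3.01 CPM in HCT116EV, 7.32, 4.88 and 7.31 in HCT116EHF, 15.4, 3.38 and 5.91 in HCT116CDX1, and 7.12, 14.2 and 5.81 in HCT116EHF+CDX1. The HCT116EHF+CDX1 libraries lay just above those of HCT116EV and among those of the other groups. The log2 fold change of 1.18 ± 0.54 against HCT116EV did not pass (adjusted p = 0.237), with a pooled ratio of 2.61 and a counting interval of 1.44 to 5.10.

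**Figure D2:**
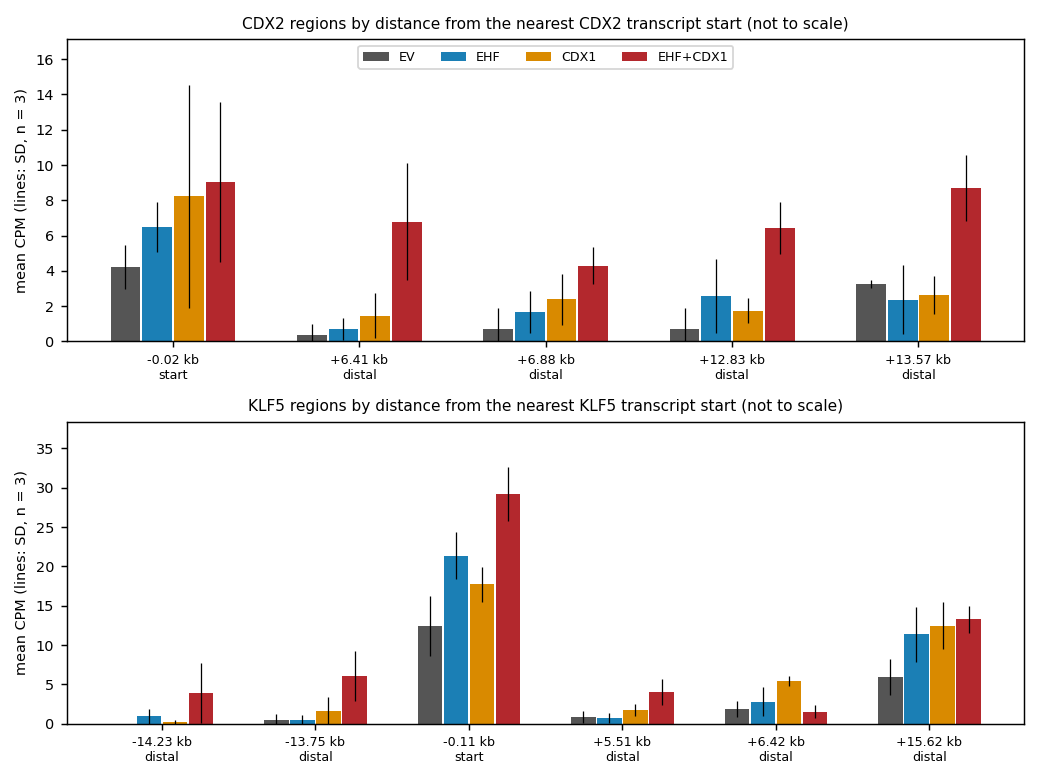
Mean CPM per group (bars; lines are the SD, n = 3) for each CDX2 region (top) and each KLF5 region (bottom), in order of the distance in kb of the region's centre from the nearest transcript start, positive values lying downstream; the spacing is not to scale. In the 4 distal CDX2 regions the HCT116EHF+CDX1 bar is the highest, whereas at the KLF5 start and 15.62 kb downstream the bars of HCT116EHF and HCT116CDX1 also stand above HCT116EV.

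ISX could not be described, because no region of the count table lay within its gene body or the 20 kb around it (chr22:35066136-35087387, plus strand, before the flanks). At HNF4A (chr20:44355699-44432845, plus strand) the counts were low in every group. The start region lies 264 bases upstream of the nearest start and held 1, 1 and 1 counts in HCT116EV, 2, 2 and 0 in HCT116EHF, 0, 3 and 2 in HCT116CDX1, and 5, 21 and 8 in HCT116EHF+CDX1. All HCT116EHF+CDX1 libraries were above all others in CPM (2.97, 4.74 and 6.64 against at most 2.37), but the log2 fold change of 2.13 ± 0.99 against HCT116EV did not pass (edgeR adjusted p = 0.248). The pooled ratio of 4.68, on 3 counts in the control, had a counting interval of 1.47 to 23.8. The distal region, within an untranslated HNF4A exon 6.24 kb from the nearest start, averaged 2.25 ± 1.65 CPM in HCT116EV and 5.05 ± 2.72 in HCT116EHF+CDX1, and these overlapped (log2 fold change 1.09 ± 0.71, adjusted p = 0.432).

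Of the forkhead genes, FOXA2 (chr20:22580998-22585455, minus strand) was nearly closed outside HCT116EHF+CDX1: its 2 start regions together held 1, 1 and 0 counts in HCT116EV, 1, 1 and 1 in HCT116EHF, 1, 1 and 0 in HCT116CDX1, and 18, 46 and 4 in HCT116EHF+CDX1. In CPM the HCT116EHF+CDX1 libraries were at 10.7, 10.4 and 3.32, so that replicate 3 was lower than the other two but still above the 9 libraries of the other groups. The log2 fold changes were 3.54 ± 0.89 against HCT116EV (adjusted p = 0.0181), 3.53 ± 0.80 against HCT116EHF (adjusted p = 0.00545) and 3.88 ± 0.87 against HCT116CDX1 (adjusted p = 0.00699). The pool entered the test only through HCT116EHF+CDX1 libraries, and with every feature of 1 or more counts kept the adjusted p-values were 0.0183, 0.00551 and 0.00696. With 2 or 3 counts in each comparison group the pooled ratios of 14.0, 14.4 and 18.39 were wide, with counting intervals of 3.74 to 118, 4.72 to 71.5 and 4.90 to 155. Without HCT116EHF+CDX1 replicate 2 none of the 3 passed (adjusted p = 0.148, 0.112 and 0.121), at log2 fold changes of 3.30, 3.29 and 3.62. The call against HCT116EV was also lost without HCT116EV replicate 2 or 3 or HCT116EHF+CDX1 replicate 1 (adjusted p = 0.126, 0.0702 and 0.0692), that against HCT116EHF without HCT116EHF replicate 2 (0.0661), and that against HCT116CDX1 without HCT116CDX1 replicate 2 (0.0907).

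Most of the FOXA2 counts came from its start region in an intron. It held 0 counts in all HCT116EV and HCT116CDX1 libraries, 1 in HCT116EHF replicate 3, and 11, 26 and 1 in HCT116EHF+CDX1. With HCT116CDX1 and HCT116EV each set at a floor of 3 counts over the group, the ratios to them were 6.85 and 5.23. The counting intervals, which use no floor, began lower, at 5.31 and 4.05. The difference from HCT116CDX1 passed (edgeR adjusted p = 0.0337), and that from HCT116EV missed the threshold (adjusted p = 0.0529). The other FOXA2 start region, in an untranslated exon, held 0 or 1 counts in each of the 9 other libraries and 7, 20 and 3 in HCT116EHF+CDX1. Both FOXA2 start regions passed the filter on low counts through HCT116EHF+CDX1 libraries alone. The call at the intronic region against HCT116CDX1 was lost without any single HCT116CDX1 library (adjusted p of 0.0939 to 0.217) and without HCT116EHF+CDX1 replicate 1 or 2 (0.0987 and 0.203).

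FOXA1 (chr14:37589552-37596059, minus strand) was already open in the control. Its 2 start regions held 15.4, 11.7 and 12 CPM in HCT116EV and 11.3, 12.2 and 12.5 in HCT116EHF+CDX1, with 9.45 ± 2.64 in HCT116EHF and 8.93 ± 0.46 in HCT116CDX1. The ranges of the control and the double line overlapped, at a log2 fold change of −0.12 ± 0.38 (adjusted p = 0.909). The sign turned without HCT116EV replicate 1 (0.02) and when libraries were scaled within each chromosome (0.04), so no direction can be given. Its distal region averaged 1.79 ± 0.87 CPM in HCT116EV and 3.71 ± 2.19 in HCT116EHF+CDX1, with a log2 fold change of 0.95 ± 0.77 (adjusted p = 0.550) that was −0.11 after quantile normalisation. The region with the highest CPM, at chr14:37596124-37596274, also lies in an intron of TTC6, so its signal cannot be given to FOXA1 alone.

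GATA6 (chr18:22169589-22202528, plus strand) was the only member whose pooled signal was lower in HCT116EHF+CDX1 than in HCT116EV with no overlap. This was 1 of 11 member pools, beside 6.7% of all pools, and each GATA6 region taken singly overlapped between these groups. Its 2 start regions held 8.78, 8.98 and 12 CPM in HCT116EV, 6.40, 4.47 and 10.1 in HCT116EHF, 7.69, 8.68 and 11.8 in HCT116CDX1, and 7.12, 7.90 and 2.49 in HCT116EHF+CDX1. The gap between the control and the double line was small. The log2 fold change of −0.61 ± 0.46 did not pass (adjusted p = 0.523). Relative to the median over all pools it was −0.75, and −0.40 with libraries scaled within each chromosome. The regions of chromosome 18 had a median of −0.26. Both regions lie in the antisense gene GATA6-AS1 as well.

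KLF5 (chr13:73054976-73077541, plus strand) had the highest mean start accessibility per kb among the members in every group, though its lead was within the SDs over FOXA1 in HCT116EV and over CDX2 in HCT116CDX1. The region, chr13:73058758-73059029, held 16.5, 11.7 and 9.02 CPM in HCT116EV, 20.1, 24.8 and 19.2 in HCT116EHF, 16.3, 20.3 and 16.6 in HCT116CDX1, and 25.5, 32.3 and 29.9 in HCT116EHF+CDX1. Each HCT116EHF+CDX1 library was above every other library, and the HCT116EHF libraries were above those of HCT116EV. As a pool it rose by a log2 fold change of 1.22 ± 0.33 against HCT116EV (edgeR adjusted p = 0.0287), a pooled ratio of 2.41 with a counting interval of 1.71 to 3.50. The call was lost without HCT116EHF+CDX1 replicate 2 (1.14, adjusted p = 0.153) and without HCT116EV replicate 2 or 3 (1.16 and 1.05, adjusted p = 0.155 and 0.116). Tested as a single region it sat at the threshold (adjusted p = 0.0496) and was called under 4 of 26 alternatives. The 5 distal regions of KLF5 together held 5.49, 9.67 and 12 CPM in HCT116EV, 21, 18.3 and 9.14 in HCT116EHF, 20.2, 24.1 and 20.1 in HCT116CDX1, and 21.4, 41.1 and 24.1 in HCT116EHF+CDX1. The HCT116CDX1 and HCT116EHF+CDX1 libraries were all above the control, and HCT116EHF replicate 3 was within it. The log2 fold change of HCT116EHF+CDX1 was 1.73 ± 0.37 (adjusted p = 0.00408), a pooled ratio of 3.78 with a counting interval of 2.54 to 5.85, and was 1.34 without replicate 2 (adjusted p = 0.129). With a window of 10 kb around the gene in place of 20 kb it was 1.27 (adjusted p = 0.309).

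The 5 distal regions of KLF5 had different patterns. The pair of regions about 14 kb upstream of its first start held few counts in the control and in both single lines, and 1 HCT116EHF+CDX1 library gave most of theirs in the double line. That at −14.23 kb held 0, 0 and 0 counts in HCT116EV and 3, 37 and 2 in HCT116EHF+CDX1, and the difference did not pass (edgeR adjusted p = 0.0503). With HCT116EV set at the floor of 3 counts over the group, the pooled ratio was 5.78. The counting interval, which uses no floor, began lower. The region at −13.75 kb, chr13:73041149-73041299, held 0, 2 and 0 in HCT116EV, 0, 3 and 0 in HCT116EHF, 0, 3 and 3 in HCT116CDX1 and 6, 43 and 6 in HCT116EHF+CDX1. Its HCT116EHF+CDX1 replicate 1 (3.56 CPM) lay hardly above HCT116CDX1 replicate 3 (3.55 CPM). It passed against HCT116EHF (log2 fold change 3.25 ± 0.91, adjusted p = 0.0194, pooled ratio 11.6 with a counting interval of 3.78 to 58.2), but not without HCT116EHF+CDX1 replicate 2 (0.331) or HCT116EHF replicate 1 or 3 (0.0814 and 0.0853), nor against HCT116EV (adjusted p = 0.0585). Both of these, and the intronic region at 5.51 kb, passed the filter on low counts through HCT116EHF+CDX1 alone. The intronic region held 1, 0 and 1 counts in HCT116EV and 4, 25 and 5 in HCT116EHF+CDX1 (adjusted p = 0.21). The region at 6.42 kb was at 1.1, 1.38 and 3.01 CPM in HCT116EV, 4.57, 2.84 and 0.914 in HCT116EHF, 5.77, 5.79 and 4.73 in HCT116CDX1 and 0.594, 2.26 and 1.66 in HCT116EHF+CDX1. It was the only member region lower in HCT116EHF+CDX1 than in HCT116CDX1 without overlap, at a log2 fold change of −1.69 ± 0.75 that did not pass (adjusted p = 0.206), and against HCT116EV it stood at −0.04 ± 1.03 (adjusted p = 0.989). The region 15.62 kb downstream of the nearest start, which gave the most distal counts, averaged 5.91 ± 2.28 CPM in HCT116EV, 11.3 ± 3.51 in HCT116EHF, 12.5 ± 2.99 in HCT116CDX1 and 13.3 ± 1.76 in HCT116EHF+CDX1. There the double line hardly differed from the single lines, at log2 fold changes of 0.23 ± 0.38 against HCT116EHF and 0.07 ± 0.38 against HCT116CDX1, with ratios of 1.19 and 1.05 and counting intervals of 0.849 to 1.68 and 0.748 to 1.49.

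KLF4 (chr9:107484852-107490482, minus strand) had 1 region, at its start. It held 7.68, 1.38 and 0 CPM in HCT116EV, 1.83, 1.63 and 8.23 in HCT116EHF, 2.89, 4.34 and 3.55 in HCT116CDX1, and 5.34, 10.2 and 5.81 in HCT116EHF+CDX1. The control libraries spanned most of the range of the others, and the log2 fold change of 1.29 ± 0.66 did not pass (adjusted p = 0.297).

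In the lines with 1 introduced factor no member passed the test. Of the 11 pools, 0 passed in HCT116EHF against HCT116EV (0.0125% of all pools) and 0 in HCT116CDX1 against HCT116EV (0.0187%) by edgeR, and 0 by DESeq2 or limma voom, while at an unadjusted p under 0.05 edgeR gave 2 and 1 of the 11, against 4.62 and 3.16% of all pools. These were the pools of KLF5: in HCT116EHF the start at 0.79 ± 0.34 (adjusted p = 0.983) and the distal regions at 0.87 ± 0.40 (adjusted p = 0.983), and in HCT116CDX1 the distal regions at 1.28 ± 0.39 (adjusted p = 1). The comparisons of the 3 lines with the control share its libraries. The medians of the member pools were 0.20 in HCT116EHF and 0.44 in HCT116CDX1, beside 0.08 and 0.02 over all pools. Of the 11, 7 and 8 were above 0, beside 56.9 and 52.0% of all pools.

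Against the single lines, only CDX2 and FOXA2 had member pools that passed, and none of their calls held without HCT116EHF+CDX1 replicate 2. With libraries scaled within each chromosome, CDX2 distal also did not pass against HCT116CDX1. The FOXA2 start pool entered the test through HCT116EHF+CDX1 libraries alone. The CDX2 distal and FOXA2 start pools, 2 of 11, passed against both HCT116EHF (2.86% of all pools) and HCT116CDX1 (2.1%). KLF5 did not: the start pool stood at 0.44 ± 0.29 against HCT116EHF (adjusted p = 0.468) and 0.70 ± 0.30 against HCT116CDX1 (adjusted p = 0.213), and the distal pool at 0.86 ± 0.32 and 0.45 ± 0.31 (adjusted p = 0.133 and 0.485). Over single regions, 2 of 21 member regions passed against HCT116EV, 3 against HCT116EHF and 1 against HCT116CDX1, beside 2.57, 4.35 and 2.6% of all regions, and 0 passed in HCT116EHF or HCT116CDX1 against HCT116EV or in the interaction below, beside 0.00995, 0 and 0.123%. The FOXA2 region called against HCT116CDX1 and a KLF5 region called against HCT116EHF entered the test through HCT116EHF+CDX1 libraries alone. Whether the double line departed from the sum of the effects of the single lines was tested as an interaction on the log2 scale. There 0 of 11 member pools passed by edgeR, DESeq2 or limma voom (0% of all pools by edgeR), with 2 of 11 at an unadjusted p under 0.05 against 8.99% of all pools. These were CDX2 distal, at 1.48 ± 0.66 (adjusted p = 0.495), and FOXA2 start, whose size is not given because its single lines were at the floor (adjusted p = 0.522).

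**Figure D3:**
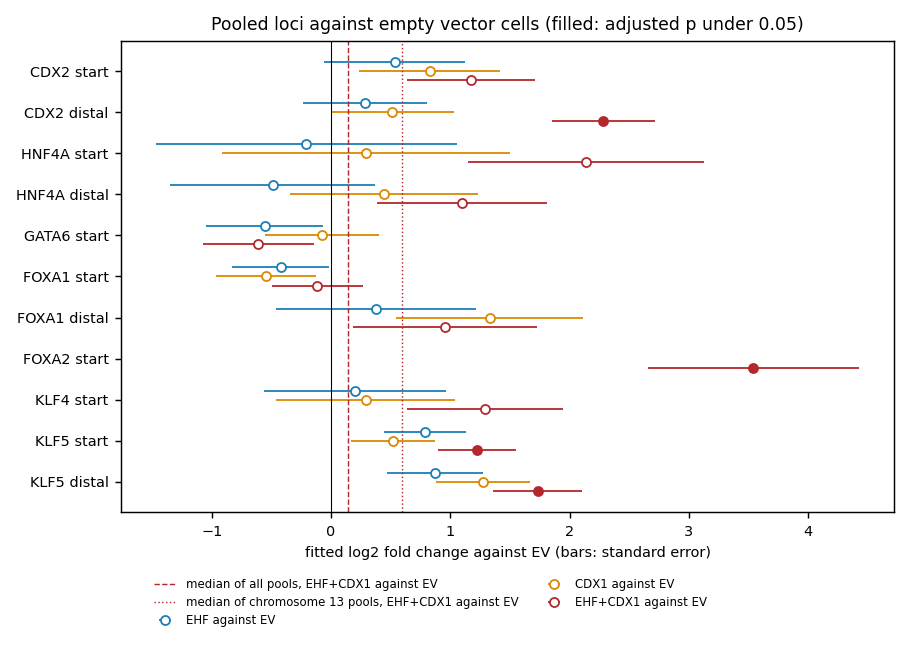
Log2 fold change against HCT116EV with its standard error (lines) for the 11 member pools in HCT116EHF, HCT116CDX1 and HCT116EHF+CDX1; filled points passed an adjusted p of 0.05, the dashed line is the median of all pools in HCT116EHF+CDX1 (0.14) and the dotted line that of the chromosome 13 pools (0.60). FOXA2 is drawn for HCT116EHF+CDX1 only, since the single lines were at the floor, and the 4 filled points all belong to HCT116EHF+CDX1.

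The whole of chromosome 13 moved with these results at CDX2 and KLF5. Over its 1255 tested regions the median log2 fold change of HCT116EHF+CDX1 against HCT116EV was 0.98, with 82.7% above 0, compared with 0.18 over all regions, and it was −0.03 and 0.03 for the lines with EHF or CDX1 alone. The chromosomes of the other members stood at 0.39 (20), 0.26 (9), −0.06 (14) and −0.26 (18). Of the 359 pools of chromosome 13, 5.57% passed as higher, and of its 161 distal pools 7.45% did. DNA copy number was not measured, and its part in the result was not tested. In a fit added after the data were seen, libraries were scaled within each chromosome, which removes any shift shared by a chromosome. Against HCT116EV the CDX2 distal pool then stood at 1.77 ± 0.42 (adjusted p = 0.0118) and the FOXA2 start pool at 3.27 ± 0.89 (adjusted p = 0.0341), and both kept their calls. The KLF5 distal pool fell to 1.20 ± 0.35 (adjusted p = 0.0533) and the KLF5 start pool to 0.73 ± 0.33 (adjusted p = 0.249), and both lost them. Against HCT116EHF the CDX2 distal pool kept its call (1.41, adjusted p = 0.026), and against HCT116CDX1 it did not (1.18, adjusted p = 0.0896). With HCT116EHF+CDX1 replicate 2 also left out no member pool passed, and CDX2 distal stood at 1.73 (adjusted p = 0.0964). Summed over the 10 member regions on other chromosomes, accessibility was 31.7 ± 4.00 CPM in HCT116EV, 26.3 ± 6.48 in HCT116EHF, 31.4 ± 5.13 in HCT116CDX1 and 46.6 ± 10.4 in HCT116EHF+CDX1.

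**Figure D4:**
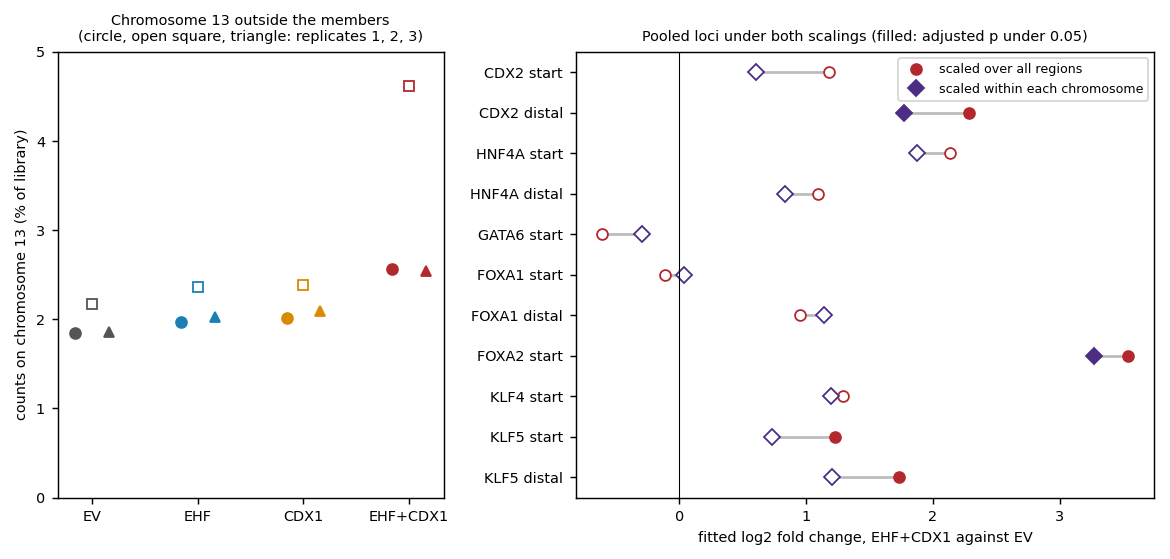
Left, the percent of counts on chromosome 13 in each library, outside introduced genes, mitochondrial matches and member regions, where circles, open squares and triangles are replicates 1, 2 and 3; HCT116EHF+CDX1 replicate 2 stands at 4.62%. Right, the log2 fold change of each member pool in HCT116EHF+CDX1 against HCT116EV with libraries scaled over all regions (circles) and within each chromosome (diamonds), filled where the adjusted p passed 0.05; the CDX2 and KLF5 pools move toward 0, and CDX2 distal and FOXA2 start stay filled.

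The order of the start pools, set per kb of region, was not the same in the control and the double line. In HCT116EV it ran from KLF5 (45.6 ± 13.8 CPM per kb) and FOXA1 (43.2 ± 6.67) through GATA6 (32.9 ± 6.02), CDX2 (27.9 ± 8.23) and KLF4 (20.01 ± 27.1) to HNF4A (7.27 ± 2.69) and FOXA2 (1.97 ± 1.84). Of these neighbours only HNF4A and FOXA2 differed by more than the sum of their SDs. In HCT116EHF+CDX1 it ran from KLF5 (107 ± 12.6) and CDX2 (60.0 ± 30.0) through KLF4 (47.1 ± 17.6), FOXA1 (39.7 ± 2.05), HNF4A (31.7 ± 12.2) and FOXA2 (26.9 ± 13.8) to GATA6 (19.3 ± 9.68), and only KLF5 and CDX2 differed by more than that sum. Among the start pools of all genes, FOXA2 moved from percentile 0.53 in HCT116EV to 19.5 in HCT116EHF+CDX1, GATA6 from 49.2 to 5.45, and KLF5 from 75.7 to 99.2. Percentiles rank group means without their spread, and the GATA6 difference did not pass the test (log2 fold change −0.61, edgeR adjusted p = 0.523). Among all distal pools, CDX2 moved from percentile 13.5 to 91.7 and KLF5 from 18.3 to 80.4.

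Beyond the members, 30 other transcription factor genes of the intestine and endoderm were listed by role, of which 27 gave 42 tested pools. In HCT116EHF+CDX1 against HCT116EV 5 of the 42 passed, beside 2.53% of all pools. Above 0 lay 34 of 42, beside 58.2% of all pools, and the median was 0.75, beside 0.14 over all pools. HNF4G, the paralogue of HNF4A in the enterocyte, was higher at its distal regions (4.14 to 6.59 CPM in HCT116EV and 19.9 to 27.5 in HCT116EHF+CDX1, log2 fold change 2.11 ± 0.42, edgeR adjusted p = 0.002) and at its start (3.29 to 8.29 and 15.4 to 21.9 CPM, 1.62 ± 0.42, adjusted p = 0.024). ELF3, an epithelial ETS factor related to EHF, was higher at its distal regions (5.49 to 15 and 19.1 to 26.0 CPM, 1.42 ± 0.40, adjusted p = 0.036). HES1, the Notch target that holds back secretory fate, was higher at its start (14.3 to 19.3 and 26.1 to 40.9 CPM, 1.05 ± 0.31, adjusted p = 0.045). GATA4, a relative of GATA6 of the proximal gut, was lower at its 1 distal region (3.29 to 10.5 and 1.13 to 2.97 CPM, −2.17 ± 0.63, adjusted p = 0.043). None of these ranges overlapped. With neighbouring starts counted as distal, GATA4 stood at −1.09 and did not pass (edgeR adjusted p = 0.186). Without HCT116EHF+CDX1 replicate 2 only HNF4G distal passed, at 1.94 (adjusted p = 0.0462), and with scaling within each chromosome HES1 did not (adjusted p = 0.11). Leaving out a single library also ended the calls of ELF3 (without HCT116EV replicate 1 or 2 or HCT116EHF+CDX1 replicate 1, adjusted p of 0.0549 to 0.255), GATA4 (without HCT116EV replicate 2 or 3, HCT116EHF replicate 3 or HCT116EHF+CDX1 replicate 3, 0.0534 to 0.317) and the HNF4G start (without HCT116EV replicate 1 or 3, 0.069 to 0.097). The HES1 call held without HCT116EHF replicate 2, HCT116CDX1 replicate 2 or HCT116EHF+CDX1 replicate 1 but not without any other single library.

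**Figure D5:**
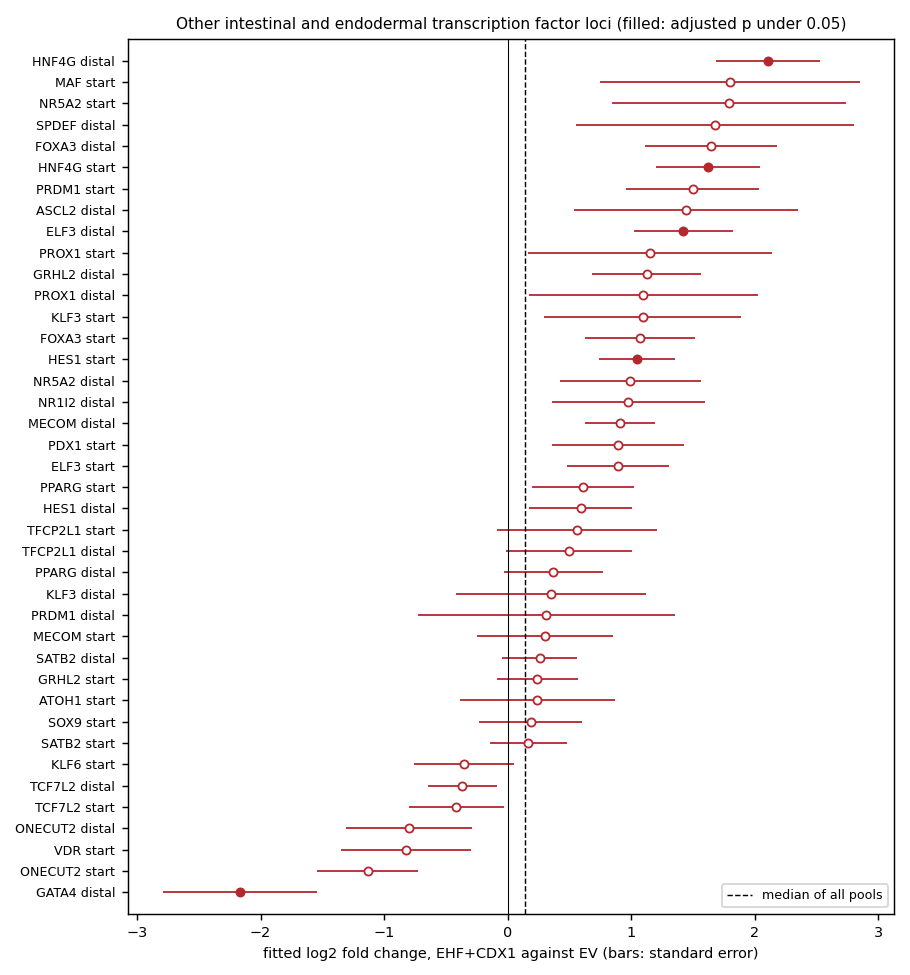
Log2 fold change with its standard error (lines) of HCT116EHF+CDX1 against HCT116EV for 40 of the 42 tested pools of the wider list, sorted by size, with filled points where the adjusted p passed 0.05 and a dashed line at the median of all pools (0.14). The filled points are HNF4G distal and start, ELF3 distal and HES1 start above 0, and GATA4 distal below it.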

How the data were processed

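ATAC-seq was analysed in 12 libraries of HCT116 cells, 3 in each of 4 groups taken from the library titles. Per the study's methods and processing notes, the authors aligned reads to hg38 with Subread 2.0.0, retained reads with a unique position, found peaks with HOMER 4.7, merged these and counted reads per region with featureCounts 2.0.0; limma is also named. The deposited counts (30170 regions) were used for all results. The deposited log2 CPM values (27827 regions) entered 1 alternative. The shift of Tn5 cut sites is not given in the sources used here.

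Counts were tested with edgeR 4.0.16 (R 4.3.3; robust quasi-likelihood F-test, two-sided, TMM scaling, all 12 libraries in 1 fit with group only) after keeping features with 3 CPM of the unscaled library total in at least 1 library, which left 30154 regions and 16020 pools. P-values were adjusted by Benjamini-Hochberg over all features tested, with 0.05 as the threshold. CPM are counts over the TMM-scaled library size, and the SE is the log2 fold change divided by the root of F. Pools sum the counts of a gene's regions within 20 kb, those within 1 kb of a start apart from the rest, and leave out regions within 1 kb of another protein-coding gene's start. A group at 0 was set to a floor of 3 counts over the group. Matches to mitochondrial DNA (193 regions) were found with blastn 2.17.0 (at least 40 bases at 80% identity), and 11 regions overlapped exons of EHF or CDX1. Counting intervals are exact binomial ones (scipy 1.17.1). The fits were tested on simulated data.

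The members, the wider list of 30 genes and the tests were chosen with earlier results of these data known. All members are named; single regions are named where called in any comparison or where they hold the highest mean CPM among a member's start or distal regions, and genes of the wider list where called or among the 2 highest and 2 lowest distal fold changes. Some items named by this rule are not reported here. DESeq2 1.42.0, limma 3.58.1 (voom with quantile or cyclic loess normalisation), library size scaling, other filters and windows, a replicate block and leaving libraries out were alternatives. Scaling within each chromosome was added after seeing the data.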

Additional observations from a re-analysis of the deposited data

How the results depend on the processing

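Each pool result was recomputed under 28 alternatives and each region result under 26. The counts for HCT116EHF and HCT116CDX1 against HCT116EV and for the interaction stayed at 0 members in all of them. Member pools called against HCT116EV (4) went to 0 with library size, quantile or loess scaling, 2 with scaling within each chromosome and 0 when HCT116EHF+CDX1 replicate 2 was also left out, and ranged from 1 to 4 with libraries left out. Member pools called against HCT116EHF (2) went to 1 with loess, 0 with both chromosome scaling and that library left out, and 0 to 2 with libraries left out. Those against HCT116CDX1 (2) went to 1 with library size, DESeq2, loess or chromosome scaling, 0 with the latter and that library left out, and 0 to 2 with libraries left out. Member regions called against HCT116EV (2) went to 0 with library size, DESeq2, loess, chromosome scaling with or without that library, or the deposited log2 values, 1 with 3 CPM in 2 libraries, 4 without mitochondrial and introduced regions, and 0 to 6 with libraries left out. Those against HCT116EHF (3) went to 0 with library size, DESeq2, loess, chromosome scaling with or without that library, or the deposited log2 values, and 0 to 4 with libraries left out. Those against HCT116CDX1 (1) went to 0 with library size, DESeq2, loess, the deposited log2 values or chromosome scaling without that library, 2 with quantile scaling, and 0 to 2 with libraries left out. The wider list (5) went to 0 with library size, quantile or loess scaling, 2 with DESeq2, 3 with neighbouring starts counted as distal, 1 with chromosome scaling without that library, and 0 to 8 with libraries left out. The FOXA1 start pool turned sign with chromosome scaling (0.038) and ranged from −0.24 to 0.053 with libraries left out, above 0 without HCT116EV replicate 1 or replicate 1 of all groups, and the FOXA1 distal pool to −0.11 with quantile scaling. In all other alternatives the called pools kept their direction, and the cause of the lost calls was not tested.

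The labels do not say that a replicate number marks a shared day or batch, and the numbers were not taken as pairs: deviations of libraries with the same number correlated at −0.10 to 0.31, and 5 of 18 pairs passed 0.1. All 3 pairs of HCT116EHF with HCT116CDX1 did (0.101 to 0.306), which are not compared here, and in none of the comparisons made did every pair. With a replicate block the calls were 6, 3 and 2 regions and 4, 3 and 2 pools against HCT116EV, HCT116EHF and HCT116CDX1, and 9 on the wider list. Blocked values against HCT116EV were 2.29 for CDX2 distal (adjusted p = 4.63e-06), 3.59 for FOXA2 start (0.00431), 1.75 for KLF5 distal (9.34e-05) and 1.23 for KLF5 start (0.00395). Of the 12 libraries, 10 correlated best with their own number. Replicate 2 had the highest median count per region in every group (6 in HCT116EV, 11 in HCT116EHF, 9 in HCT116CDX1 and 22 in HCT116EHF+CDX1). Leaving out HCT116EHF+CDX1 replicate 2 alone therefore takes that number from 1 group only, and a shared batch was not tested.

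The median over all pools was 0.14 with TMM, 0.01 with quantile and 0.03 with loess scaling. Relative to it, CDX2 distal ranged from 1.66 to 2.38, FOXA2 start from 1.77 to 3.56, KLF5 distal from 1.1 to 1.83 and KLF5 start from 0.63 to 1.17 over the scalings. Of all pools, 267 were called higher and 139 lower, against 25 and 30 with quantile and 173 and 143 with chromosome scaling. Depth limited most values, since 9 of 21 member regions held 3 or fewer counts over the whole HCT116EV group.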

Other observations

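Summed start and distal counts of KLF5, CDX2 and FOXA1 averaged 20 or more per library, so the genes whose log2 CPM followed theirs most closely over the 12 libraries were listed as a description, among 4928 genes of that depth (4927 for FOXA1). For KLF5 these were CAPZA2 (Pearson r = 0.94) and FAM3C (0.91), for CDX2 PKDCC (0.91) and MIPEP (0.91), and for FOXA1 TTF2 (0.87) and TMEM169 (0.86). MIPEP lies on chromosome 13, as CDX2 does, and the points share the depth and scaling of their libraries.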
